A study of Mus musculus with 10 samples.

Results

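RNA levels of 44 interferon-stimulated and antigen presentation genes were followed in cultured mouse hepatocytes. The genes were taken from a written list of symbols, which was chosen with earlier results of these data known. All 44 were found among the 18055 genes in the tables and entered the tests over 14097 genes. They comprise 5 sensors of RNA and other nucleic acids, 6 transcription factors and feedback regulators, ISG15 with its ligase Herc6, 8 effectors that act on RNA, 11 other antiviral effectors, 6 guanylate-binding protein (GBP) and immunity-related (IRG) GTPases, and 6 genes of class I antigen presentation.

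Primary hepatocytes of wild-type C57BL/6 mice, isolated by collagenase perfusion and kept on collagen-coated plates, were studied by RNA sequencing in 5 groups of 2 libraries each. The groups were Vehicle, 200 µM palmitate (PA) for 24 h, 12 µM linoleate (LA) for 24 h, and each of these free fatty acids (FFAs) after a pretreatment of 1 h with Neurotropin (PA+NTP and LA+NTP). NTP, used at 0.4 NU per mL per the methods, is a non-protein extract of rabbit skin inflamed by vaccinia virus. No group received NTP without an FFA, neither the age nor the number of the mice is given in the sources used here, and nothing in the labels says that the libraries of a group came from separate cultures or animals, so that the p-values measure only the spread between these libraries, which may be technical.

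Interferons are secreted when a cell detects viral nucleic acid or other danger signals, and they bind receptors whose kinases phosphorylate STAT proteins. Type I interferons act mainly through a complex that holds STAT2 and IRF9 on the interferon-stimulated response element (ISRE), and interferon gamma acts mainly on the gamma-activated site (GAS). The induced proteins block viral replication and raise peptide display on class I MHC, and hepatocytes carry receptors for both types of interferon.

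The depth per library ranged from 13142588 expected counts in PA 1 to 60046937 in LA+NTP 2. Hepatocyte identity was checked by 7 markers, with albumin between 1929 and 2818 FPKM (fragments scaled for transcript length and library size) in every library. Serpina1c ran from 369.93 to 1059.83 FPKM and Apoa1 from 180.63 to 957.75. The other markers were much lower, with Ttr at 22.97 to 79.31 and Cyp2e1 at 15.23 to 20.74 FPKM. Tat ran from 3.64 to 8.51 FPKM and Cps1 from 1.52 to 4.61. The summed FPKM of the 7 markers moved with the groups, from 3846 to 4073 in Vehicle, 2530 to 2833 in PA, 3136 to 3557 in PA+NTP, 3779 to 3908 in LA and 4589 to 4917 in LA+NTP. Albumin made up most of this sum, and the markers did not all move together. Albumin, Apoa1, Ttr, Serpina1c and Cps1 were lower in both PA libraries than in both Vehicle libraries, while Tat overlapped. Cyp2e1 was higher with PA, at 20.04 and 20.74 FPKM, against 18.94 and 17.97 in Vehicle. Of 8 Kupffer cell and macrophage markers, Cd68 made up most of the sum. The defining Kupffer cell genes Clec4f and Vsig4 did not exceed 0.29 and 0.30 FPKM and were not raised in the PA groups. Marco, a scavenger receptor of macrophages, was higher in every library with PA, at 0.67 and 0.58 FPKM in Vehicle, 3.95 and 2.90 in PA, 3.36 and 4.59 in PA+NTP, and between 0.42 and 0.95 in LA and LA+NTP. The macrophage gene Adgre1 was at 0.34 and 0.56 FPKM in Vehicle and at 0.97 and 1.12 in PA+NTP. In PA it overlapped with Vehicle, with PA 2 at 0.52. Lyz2 was at 9.15 and 9.81 FPKM in Vehicle and between 12.7 and 16.3 in PA and PA+NTP. The rise of Lyz2 was not limited to PA. Every LA and LA+NTP library also exceeded both Vehicle libraries, the lowest at 10.01 in LA+NTP 2, and LA 1 exceeded PA+NTP 1. Cd5l was lower in PA (1.16 and 1.31) than in Vehicle (2.84 and 2.70). The sum over the 8 markers ran from 217 to 218 FPKM in Vehicle, from 218 to 252 in PA, from 279 to 312 in PA+NTP, from 139 to 143 in LA and from 193 to 206 in LA+NTP, and the part of these marker changes in the results on the interferon-stimulated genes was not tested. All 7 T or NK cell markers and all 4 B cell markers stayed under 1 FPKM in every library. The 4 markers of plasmacytoid dendritic cells other than Bst2 summed to between 4.73 and 5.82 FPKM. Nearly all of this was Tcf4 (4.61 to 5.70), and Siglech, Ccr9 and Klk1 did not exceed 0.08, 0.15 and 0.04 FPKM. In bulk RNA, fewer cells of a type and less RNA per cell cannot be told apart.

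The libraries also differed in how their counts followed the GC content of genes. Across genes, the Spearman correlation of GC content with the log2 level relative to the mean of all libraries was -0.50 in PA 1, -0.51 in PA 2, -0.60 in LA 1 and -0.59 in LA 2, against 0.36 to 0.60 in the other 6. The median GC content was 49.7% over the 44 genes and 50.1% over all tested genes. For the 44 genes, each call that ends when this trend is removed is given with and without it. Single genes named from the wider pathway are given without its removal only.

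Short promoter stretches whose letters match the ISRE core are shown for 8 genes. They were chosen as 4 genes that were called higher with PA and 4 whose promoters hold the same motif but that were not called with PA. Promoter windows from RefSeq on GRCm38.p6 (250 bases before to 50 after the transcription start) existed for 32 of the 44 genes, and both strands were searched for GAAANN followed directly by GAAA, the core of the ISRE, where N is any base. Each stretch is 30 bases on the gene's own strand, from 5′ to 3′, and capitals mark every base covered by a match on either strand, so that a match on the opposite strand reads TTTCNN followed by TTTC.
Isg15: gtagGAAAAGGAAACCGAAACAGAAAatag
Gbp3: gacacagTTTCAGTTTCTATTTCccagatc
Gbp2: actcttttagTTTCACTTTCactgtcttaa
Rsad2: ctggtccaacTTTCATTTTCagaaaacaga
Ifit1: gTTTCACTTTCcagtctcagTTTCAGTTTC
Oas1a: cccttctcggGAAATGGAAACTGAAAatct
Stat2: cgcaccctggTTTCAGTTTCctttccctag
B2m: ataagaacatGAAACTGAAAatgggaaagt

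The Isg15 stretch lies at chr4:156200871-156200900 on the minus strand, 82 to 53 bases before the start, and holds 3 overlapping matches. That of Gbp3 lies at chr3:142559992-142560021 on the plus strand, 52 to 23 bases before the start, with 2 overlapping matches, and that of Gbp2 at chr3:142620594-142620623 on the plus strand, 69 to 40 bases before it. The stretch of Rsad2 lies at chr12:26456553-26456582 on the minus strand, 130 to 101 bases before the start. For the other 4 genes the stretches lie at chr19:34640784-34640813 (Ifit1, plus strand), chr5:120907526-120907555 (Oas1a, minus strand), chr10:128270266-128270295 (Stat2, plus strand) and chr2:122147538-122147567 (B2m, plus strand). Positions are counted from the transcript start used for the window. The RefSeq gene records of Gbp3 and Oas1a begin farther upstream, at 142560016 and 120907544, so that these stretches run past that start into the gene, while the other 6 lie upstream of theirs.

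The ISRE core was found in 16 of the 32 windows, against 3.99% of the 27025 genes with a window. The GAS core TTCNNNGAA was found in 8 of the 32, against 9.55% of all genes. Among the genes called higher with PA, 4 of the 7 with a window held an ISRE core, as did 12 of the 25 other members, and none of the 7 held a GAS core, against 8 of the 25. A match describes letters in the window, not a bound site.

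In Vehicle hepatocytes the class I heavy and light chains stood far above the rest. B2m, the light chain shared by all class I molecules, averaged 4924 ± 29.5 FPKM (SD, n = 2). The heavy chains H2-D1 (810 FPKM) and H2-K1 (776 FPKM) came next, and their libraries overlapped. Bst2, the membrane protein tetherin that holds budding virions on the cell, averaged 152 FPKM, and Tapbp, the tapasin bridge between class I and the peptide transporter, 73.3 FPKM. At the low end, Mx1, a dynamin-like antiviral GTPase, averaged 0.18 FPKM and Oas2, a synthetase of 2′-5′ oligoadenylates, 0.08 FPKM.

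Of the 44 genes, 4 lay above 100 FPKM, 21 between 10 and 100, 17 between 1 and 10, and 2 below 1. When the genes were put in order of their Vehicle mean, 26 of the 43 neighbouring pairs had no overlap between their libraries and 17 did overlap. H2-D1 and H2-K1 are closely related paralogs, as are the members of the GBP, OAS and IFIT families, and reads that fit several copies could have been divided between them. In all, 16 of the 44 genes had whole counts in every library, 28 had a fractional count in at least 1, and 18 have an exon that overlaps another gene. Whether the counting used strand is not given in the sources used here.

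**Figure D1:**
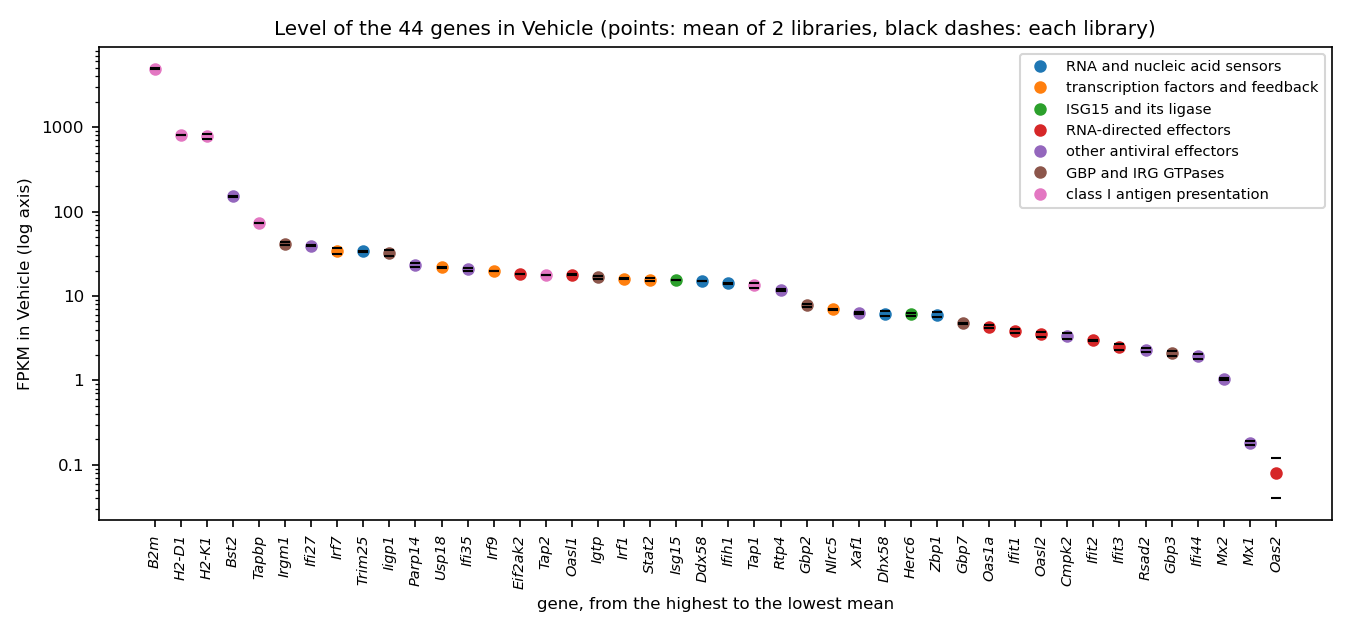
FPKM of the 44 genes in the 2 Vehicle libraries on a log axis, with genes in order of their mean; points are means coloured by role and black dashes are libraries. B2m sits at 4924 FPKM, more than any other member, while Mx1 and Oas2 fall below 1 FPKM.

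Over all 10 libraries, Trim25, a ubiquitin ligase that modifies RIG-I, and B2m varied least, with the highest library 1.20-fold and 1.21-fold above the lowest. Zbp1, a sensor of Z-form nucleic acid, varied most at 4.51-fold, followed by Gbp3 and Oas2 at 4.50-fold each, Mx2 at 4.40-fold and Ifi44 at 4.38-fold. The group with the highest mean FPKM was PA+NTP for 31 members, PA for 8, LA for 4 and LA+NTP for 1, and Vehicle was highest for no member. The lowest group was LA+NTP for 15, LA and Vehicle for 12 each, PA for 3 and PA+NTP for 2.

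Most of the 44 genes differed in the same direction between the libraries of a group. Replicate 1 exceeded replicate 2 in 41 members in PA (median log2 difference 0.19), in 41 in PA+NTP (0.28) and in 43 in LA+NTP (0.20), while in LA replicate 2 exceeded replicate 1 in 37 members (median -0.14). In Vehicle, replicate 1 was higher in 25 of 44 (median 0.03). Over all tested genes replicate 1 was higher in 46.7% to 51.9%, depending on the group.

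Relative to the Vehicle mean, the median log2 level of the members was 0.41 in PA 1 and 0.17 in PA 2. It was 0.54 in PA+NTP 1 and 0.26 in PA+NTP 2. In the LA libraries it was 0.04 and 0.31, and in LA+NTP 0.10 and -0.13, so that the difference between the libraries of one group was about as large as the differences between several groups. PA+NTP 1 held the highest value of all 10 libraries for 24 members and PA 1 for 13, and LA+NTP 2 held the lowest for 23. PA 1 and PA+NTP 1 also stand apart in that their deposited files alone carry the number 1, while the files of the other first replicates carry 2 and those of the second replicates 3. Counts of members are therefore also given without PA 1 and PA+NTP 1. Shares of all genes are given for the main fit, not for fits without a library or for DESeq2. Whether a shift of those counts is particular to the members therefore cannot be told from them.

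**Figure D2:**
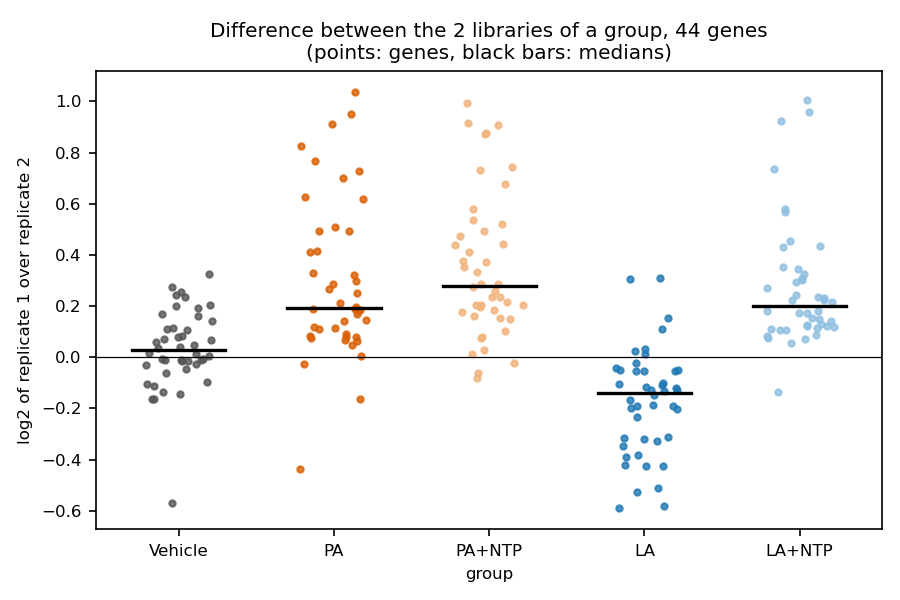
Difference between replicate 1 and replicate 2 in log2 level for each of the 44 genes, by group; points are genes and bars are medians. The medians are 0.03 in Vehicle, 0.19 in PA, 0.28 in PA+NTP, -0.14 in LA and 0.20 in LA+NTP.

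With PA against Vehicle, 9 of the 44 genes rose and none fell. These and the following calls required an adjusted p under 0.05 by edgeR's quasi-likelihood test, with Benjamini-Hochberg adjustment over all tested genes, and a fold change of at least 1.5. Gbp3, Rsad2 and Ifi44 changed most, and no class I gene was called. Of all tested genes 6.0% were called higher and 8.92% lower. The median log2 fold change of the 44 genes was 0.29, against -0.01 over all genes, and 38 members were above 0. At an unadjusted p under 0.05 there were 22 of 44 members, against 52.0% of all genes, and DESeq2 called 7 higher and none lower. Both PA libraries lay above both Vehicle libraries in 34 members, where 36.4% of all genes did so. Without PA 1 the count of genes called higher was 3, as it was without both PA 1 and PA+NTP 1, and without PA 2 it was 16. It was 5 without either Vehicle library. Gbp2, Gbp3 and Rsad2 were called in each of these.

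With LA against Vehicle, 2 of the 44 genes rose, Gbp3 and Iigp1, and none fell, while 3.53% of all tested genes were called higher and 7.11% lower. The median log2 fold change was 0.19, and both LA libraries lay above both Vehicle libraries in 21 members, where 35.5% of all genes did so. By DESeq2 1 member was called higher and none lower, and 14 members (31.8%) had an unadjusted p under 0.05, against 48.7% of all genes. Without Vehicle 2 no member was called by edgeR, and without LA 1 only Iigp1 was. Without both PA 1 and PA+NTP 1 the count was 3. PA and LA were compared with the same Vehicle libraries.

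When NTP preceded PA, 3 members were higher than with PA alone, Xaf1, Oasl1 and Oasl2, and none was called lower by edgeR, with 15 of 44 (34.1%) at an unadjusted p under 0.05, against 51.2% of all genes, and 1, Gbp2, called lower by DESeq2. The background was 8.74% of all genes called higher and 5.11% lower. The median of the members was 0.14, and it turned to -0.09 without PA 2 and to -0.08 without PA+NTP 1. The count of members called was 6 without PA 1 and 8 without PA+NTP 2, and without both PA 1 and PA+NTP 1 there were 3 higher and 1 lower.

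When NTP preceded LA, 5 members were lower than with LA alone (Iigp1, Herc6, Gbp2, Gbp3 and Ifih1), and none was called higher by edgeR, with 18 of 44 (40.9%) at an unadjusted p under 0.05, against 56.8% of all genes, and 4 lower and none higher by DESeq2. Of all genes 7.57% were called lower and 11.7% higher. The median of the members was -0.16, and both LA+NTP libraries lay below both LA libraries in 17 members, where 37.7% of all genes did so. Without LA+NTP 1 the count of members called lower was 10 and the median -0.33, without LA 1 the median was -0.32, and without LA+NTP 2 the count called lower was 3. Without both PA 1 and PA+NTP 1, libraries of other groups that enter the shared estimate of spread, it was 6. With the GC trend removed, none of these 5 members kept its call, as did neither of the 2 called with LA against Vehicle.

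A rule rebuilt from the published definition of NOISeq was applied to FPKM at a probability of at least 0.95 and a fold change of at least 1.5. It called none of the 44 genes in any of these 4 comparisons, but it called only 4 or 5 genes of 17150 to 17346 in each. With so few calls of any gene, it says nothing about the members.

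**Figure D3:**
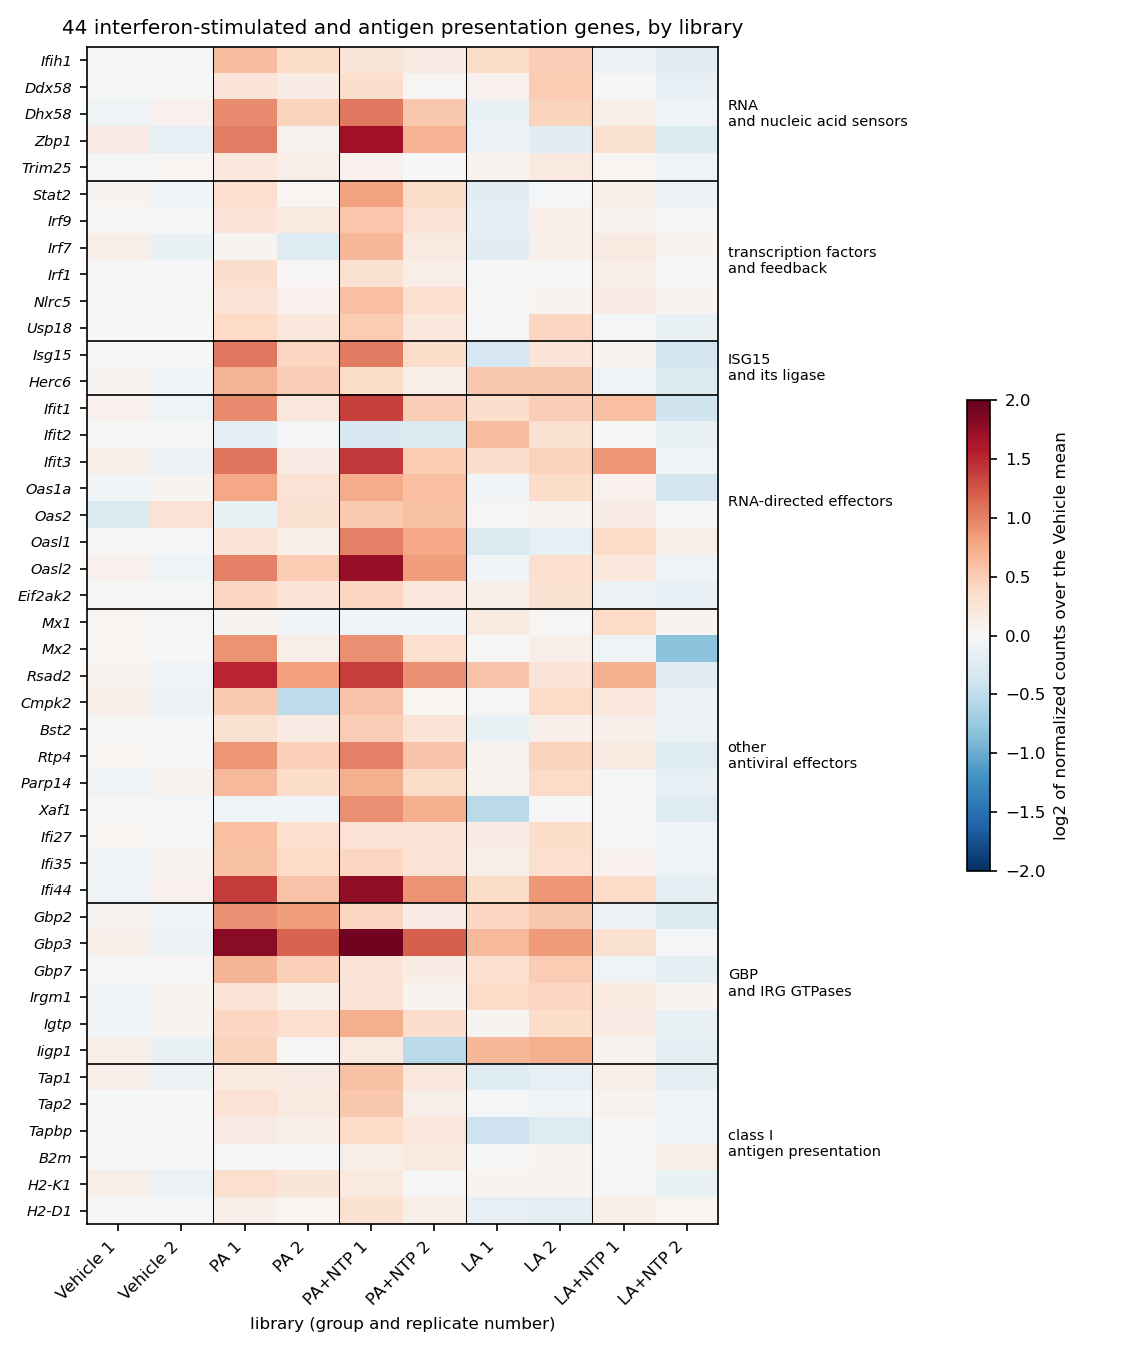
Log2 level of each of the 44 genes relative to the Vehicle mean in the 10 libraries, with genes grouped by role and libraries in columns. PA+NTP 1 holds the highest value of all libraries for 24 genes and LA+NTP 2 the lowest for 23.

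Among the sensors, Dhx58 rose with PA. Dhx58 encodes LGP2, a helicase that regulates the RNA sensors RIG-I and MDA5. Its FPKM was 5.81 and 6.55 in Vehicle, 11.8 and 8.31 in PA, 13.4 and 9.07 in PA+NTP, 5.43 and 8.22 in LA, and 6.72 and 5.75 in LA+NTP. Every PA and PA+NTP library lay above both Vehicle libraries, while LA 2 was close to PA 2. PA against Vehicle gave a log2 fold change of 0.69 ± 0.21 (SE, adjusted p = 0.0164). The call was lost without Vehicle 1 (0.62, adjusted p = 0.0978) and without PA 1 (0.45, adjusted p = 0.146).

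Ifih1 encodes MDA5, the cytosolic sensor of long double-stranded RNA. It was at 14.3 and 13.9 FPKM in Vehicle, 21.1 and 17.9 in PA, 17.1 and 15.9 in PA+NTP, 17.6 and 19.3 in LA, and 12.9 and 12.1 in LA+NTP. Its libraries did not overlap between Vehicle and either FFA, nor between an FFA and the same FFA with NTP, where both libraries were lower. The difference between LA+NTP and LA was -0.60 ± 0.08 on the log2 scale (adjusted p = 2.25e-05). Without LA 2 it was -0.54 and without LA+NTP 2 -0.56, both with a fold under 1.5. With the GC trend removed it was -0.29 (adjusted p = 0.0193). PA against Vehicle gave 0.49 ± 0.08 (adjusted p = 0.000218) and LA against Vehicle 0.44 ± 0.08 (adjusted p = 0.000654), both with a fold under 1.5.

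Zbp1 had the widest range of the sensors, with 6.43 and 5.56 FPKM in Vehicle, 12.1 and 6.62 in PA, 21.5 and 10.2 in PA+NTP, 4.77 and 4.91 in LA, and 7.84 and 5.68 in LA+NTP. In both PA groups replicate 1 was well above replicate 2, and Zbp1 was called in none of the 4 main comparisons. Ddx58, which encodes RIG-I, ran from 13.3 to 20.7 FPKM over the 10 libraries and Trim25 from 31.7 to 38.0, and neither was called. The median log2 fold change of the 5 sensors was 0.49 with PA against Vehicle and -0.16 with LA+NTP against LA.

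None of the 6 transcription factors and feedback regulators was called in the 4 main comparisons. Irf7, the factor that amplifies type I interferon production, is shown for the group. It stood at 37.3 and 31.0 FPKM in Vehicle, 34.5 and 27.7 in PA, 55.5 and 38.6 in PA+NTP, 28.3 and 35.2 in LA, and 38.5 and 35.1 in LA+NTP. Both PA+NTP libraries exceeded both PA libraries, and Vehicle overlapped with PA. Its log2 fold change was 0.55 ± 0.15 for PA+NTP against PA (adjusted p = 0.00891), a fold under 1.5, and -0.11 ± 0.16 for PA against Vehicle (adjusted p = 0.602).

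Stat2, a subunit of the factor that binds the ISRE, measured 16.2 and 15.02 FPKM in Vehicle, 19.1 and 15.7 in PA, and 28.1 and 20.2 in PA+NTP. Its difference between PA+NTP and PA was 0.43 ± 0.13 on the log2 scale (adjusted p = 0.0178), also with a fold under 1.5. Irf9, the DNA-binding subunit of the same complex, ran from 16.7 to 30.1 FPKM, and Irf1, an activator of interferon gamma targets, from 15.3 to 20.5. Nlrc5, the transactivator of class I genes, ran from 6.76 to 10.9 FPKM, and Usp18, the protease that removes ISG15 and dampens receptor signalling, from 19.6 to 31.9. All 6 lay above 0 for PA+NTP against PA, with log2 fold changes from 0.05 to 0.55.

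Isg15 and Herc6 both rose with PA. Isg15 encodes a ubiquitin-like protein that is conjugated to other proteins, and Herc6 the main mouse ligase that attaches it. Isg15 was at 15.5 and 15.6 FPKM in Vehicle, 32.0 and 20.7 in PA, 33.5 and 20.3 in PA+NTP, 11.8 and 18.1 in LA, and 16.1 and 11.7 in LA+NTP. Each PA and PA+NTP library was higher than each of the other 6, and replicate 1 was the higher in both PA groups. Its log2 fold change with PA was 0.75 ± 0.26 (adjusted p = 0.0300). It missed the threshold without Vehicle 1 (adjusted p = 0.107), without Vehicle 2 (adjusted p = 0.116) and without PA 1 (0.44, adjusted p = 0.240), and with DESeq2 (adjusted p = 0.0758).

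For Herc6 the values were 6.28 and 5.84 FPKM in Vehicle, 9.52 and 8.44 in PA, 8.10 and 6.73 in PA+NTP, 8.59 and 8.53 in LA, and 5.76 and 4.92 in LA+NTP. Both FFA groups lay above Vehicle without overlap, and the LA+NTP libraries were the lowest of all. In log2 terms Herc6 changed by 0.59 ± 0.10 with PA (adjusted p = 0.000312) and by 0.55 ± 0.10 with LA (adjusted p = 0.00064, fold under 1.5). The fold with PA fell under 1.5 without Vehicle 2 (0.54 on the log2 scale) and without PA 1 (0.51). LA+NTP against LA gave -0.73 ± 0.10 (adjusted p = 2.75e-05). Once the GC trend was removed, Herc6 was at 0.22 with PA (adjusted p = 0.141) and at -0.24 for LA+NTP against LA (adjusted p = 0.103).

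Of the 8 effectors that act on RNA, Oasl2 was called with PA, and Oasl1 and Oasl2 were called for PA+NTP against PA. Both encode proteins related to the OAS enzymes, which make 2′-5′ oligoadenylates in response to double-stranded RNA. Oasl1, known to restrain translation of Irf7 mRNA, was at 18.0 and 17.6 FPKM in Vehicle, 21.0 and 19.2 in PA, 37.2 and 30.9 in PA+NTP, 14.0 and 15.3 in LA, and 23.6 and 19.5 in LA+NTP. Each NTP group exceeded the matching FFA group without overlap, and the PA+NTP libraries were the highest of all 10. The log2 fold change was 0.71 ± 0.10 for PA+NTP against PA (adjusted p = 6.75e-05) and 0.51 ± 0.10 for LA+NTP against LA (adjusted p = 0.000728, fold under 1.5). No left-out library ended the call under PA, and with the GC trend removed the difference was 0.40 (adjusted p = 0.00872), a fold under 1.5.

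Oasl2 was measured at 3.71 and 3.30 FPKM in Vehicle, 6.99 and 4.96 in PA, 12.4 and 6.37 in PA+NTP, 3.24 and 4.28 in LA, and 4.06 and 3.27 in LA+NTP. All PA and PA+NTP libraries were above the other 6, but PA+NTP 2 lay below PA 1. On the log2 scale Oasl2 changed by 0.77 ± 0.26 with PA (adjusted p = 0.0281) and by 0.63 ± 0.24 for PA+NTP against PA (adjusted p = 0.0476). The first was lost without Vehicle 1 (adjusted p = 0.0698), without Vehicle 2 (adjusted p = 0.155), without PA 1 (0.54, adjusted p = 0.180) and with DESeq2 (adjusted p = 0.0723). The second was 0.35 without PA 2 (adjusted p = 0.419), 0.10 without PA+NTP 1 (adjusted p = 0.721) and 1.02 without PA+NTP 2, where it kept its call, and DESeq2 gave an adjusted p of 0.204. Once the GC trend was removed it was 0.62 (adjusted p = 0.0714). It also missed the threshold without Vehicle 1 (adjusted p = 0.0644), without Vehicle 2 (adjusted p = 0.0641) and without LA 1 or LA 2 (adjusted p = 0.0605 in each).

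The other 6 effectors of this kind were not called in the main comparisons. Ifit1 and Ifit3, which bind viral RNA ends and each other, ran from 2.83 to 10.5 and from 2.29 to 7.33 FPKM, with the highest value of each in PA+NTP 1. Ifit2 ran from 2.43 to 4.47 FPKM and had its highest value in LA 1. LA+NTP against LA gave -0.57 ± 0.12 on the log2 scale for Ifit2 (adjusted p = 0.00104), a fold under 1.5. Oas1a ran from 3.26 to 7.62 FPKM, Oas2 from 0.04 to 0.18 and Eif2ak2, the kinase PKR that halts translation, from 16.2 to 24.99.

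Rsad2, Rtp4 and Ifi44 rose with PA among the 11 other antiviral effectors. Rsad2 encodes viperin, a radical-SAM enzyme that makes a chain-terminating nucleotide. Its FPKM was 2.41 and 2.18 in Vehicle, 6.65 and 4.08 in PA, 6.40 and 4.47 in PA+NTP, 3.36 and 2.69 in LA, and 3.84 and 1.96 in LA+NTP. The 4 PA and PA+NTP libraries were above all others, and the LA+NTP libraries enclosed the Vehicle values. PA gave a log2 fold change of 1.21 ± 0.29 (adjusted p = 0.00381), and no left-out library ended the call.

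Rtp4, a Golgi chaperone that also binds viral RNA, had 12.1 and 11.5 FPKM in Vehicle, 21.5 and 16.2 in PA, 24.9 and 17.8 in PA+NTP, 12.0 and 15.8 in LA, and 13.3 and 9.73 in LA+NTP. The 4 libraries with PA were again the highest. For PA against Vehicle it changed by 0.68 ± 0.19 on the log2 scale (adjusted p = 0.00896), without Vehicle 2 it was 0.64 (adjusted p = 0.0672), and without PA 1 it was 0.49 (adjusted p = 0.0837).

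Ifi44, a cytoplasmic protein with antiviral activity, was at 1.80 and 2.04 FPKM in Vehicle, 5.19 and 2.87 in PA, 7.19 and 3.75 in PA+NTP, 2.42 and 3.53 in LA, and 2.55 and 1.64 in LA+NTP. PA 1 and PA+NTP 1 were far above the rest, and LA 2 exceeded PA 2. The log2 fold change with PA was 1.03 ± 0.34 (adjusted p = 0.0226). It was lost without Vehicle 1 (0.95, adjusted p = 0.109), without Vehicle 2 (1.13, adjusted p = 0.0763) and without PA 1 (0.60, adjusted p = 0.200), and with the GC trend removed (0.65, adjusted p = 0.171).

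Xaf1, which binds the apoptosis inhibitor XIAP, differed from these in that it did not rise with PA. It stood at 6.41 and 6.15 FPKM in Vehicle, 5.90 and 5.92 in PA, 12.4 and 10.5 in PA+NTP, 4.12 and 6.03 in LA, and 6.15 and 5.20 in LA+NTP. Only the PA+NTP libraries were high, and those of the other 4 groups lay between 4.12 and 6.41 FPKM. PA+NTP against PA gave a log2 fold change of 0.89 ± 0.14 (adjusted p = 0.00018), which no left-out library and no removal of the GC trend ended, and PA against Vehicle gave -0.05 ± 0.15 (adjusted p = 0.803).

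Bst2 was at 155 and 150 FPKM in Vehicle, 183 and 167 in PA, 221 and 186 in PA+NTP, 134 and 158 in LA, and 163 and 139 in LA+NTP. The libraries with PA were all above the other 6, and the log2 fold change with PA was 0.23 ± 0.10 (adjusted p = 0.0669). Parp14, a mono-ADP-ribosyltransferase, ran from 20.5 to 39.3 FPKM, Ifi27, a membrane protein of the ISG12 family, from 38.4 to 62.5 and Ifi35 from 19.3 to 30.3. These 3 had log2 fold changes of 0.51, 0.47 and 0.47 with PA, each with an adjusted p under the threshold but a fold under 1.5. Cmpk2, a mitochondrial nucleotide kinase, ran from 2.25 to 5.19 FPKM, Mx1 from 0.16 to 0.30 and Mx2 from 0.50 to 2.20, and none of these was called in the 4 main comparisons.

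**Figure D4:**
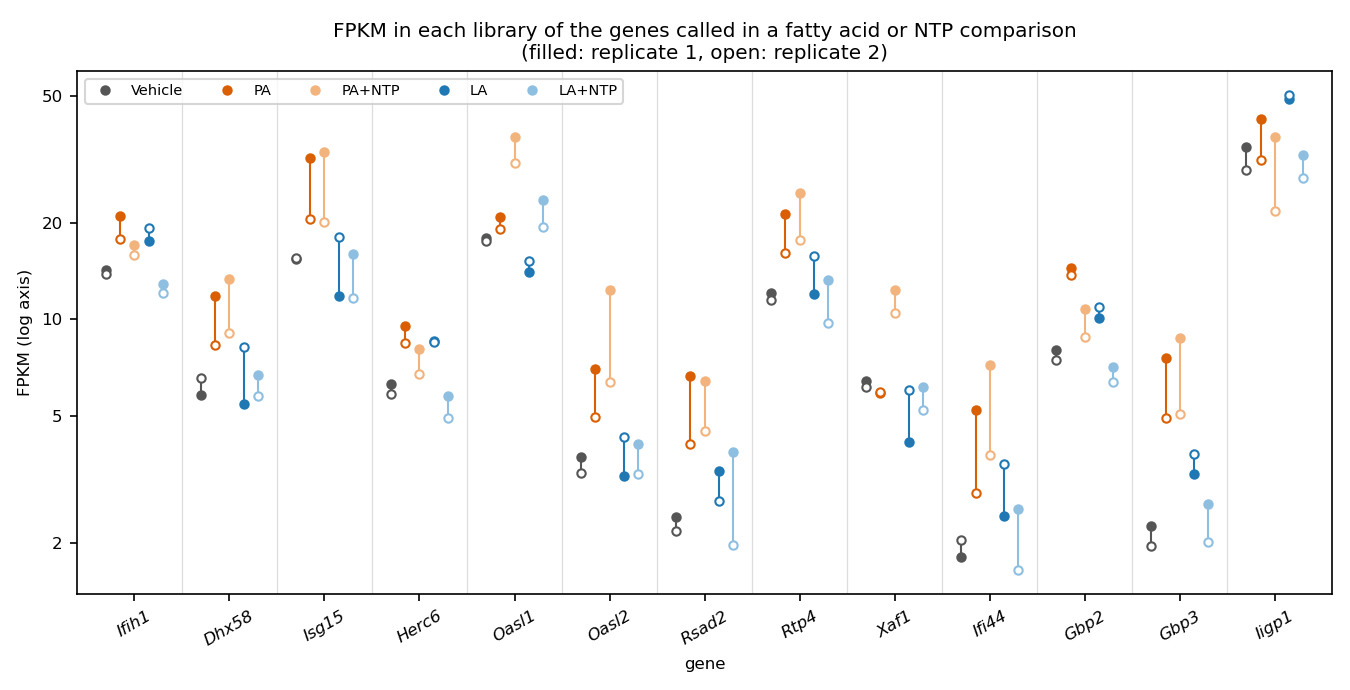
FPKM of the 13 genes called in at least 1 of the 4 main comparisons, on a log axis, by group; filled points are replicate 1, open points replicate 2, and a line joins the libraries of a group. Gbp3, Rsad2, Isg15 and Oasl2 are highest in the 4 libraries with PA, whereas Xaf1 is high in PA+NTP only.

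The GBP and IRG GTPases assemble on the membranes of vacuoles that hold microbes. They include Gbp3, which had the largest log2 fold change of the 44 genes with PA, and 3 of the 5 members called lower for LA+NTP against LA. With PA 2 of the 6 were called. Their median log2 fold change was 0.48, against 0.67 for Isg15 with Herc6 and 0.49 for the sensors. Gbp3 was at 2.25 and 1.95 FPKM in Vehicle, 7.56 and 4.91 in PA, 8.78 and 5.05 in PA+NTP, 3.28 and 3.78 in LA, and 2.64 and 2.01 in LA+NTP. Its 4 libraries with PA were the highest, those with LA came next, and LA+NTP overlapped with Vehicle. The log2 fold change was 1.57 ± 0.26 with PA (adjusted p = 0.000236), 0.80 ± 0.27 with LA (adjusted p = 0.0259) and -0.66 ± 0.25 for LA+NTP against LA (adjusted p = 0.0373).

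The rise of Gbp3 with PA held without each library in turn. With LA it missed the threshold without any one of 4 libraries: Vehicle 1 (adjusted p = 0.0648), Vehicle 2 (0.164), LA 1 (0.0577) or LA 2 (0.122). For LA+NTP against LA it did so without LA 1 (adjusted p = 0.0721), LA 2 (0.170) or LA+NTP 2 (-0.47, adjusted p = 0.230). DESeq2 gave Gbp3 an adjusted p of 0.0635 with LA and of 0.119 for LA+NTP against LA, and with the GC trend removed these were 0.119 and 0.186.

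Gbp2 had 8.04 and 7.49 FPKM in Vehicle, 14.5 and 13.8 in PA, 10.8 and 8.82 in PA+NTP, 10.1 and 11.0 in LA, and 7.12 and 6.38 in LA+NTP. The PA libraries were the highest and close to each other, and each NTP group lay below the matching FFA group. With PA the log2 fold change was 0.90 ± 0.10 (adjusted p = 1.22e-05), which held without each library and with the GC trend removed. For LA+NTP against LA it was -0.68 ± 0.10 (adjusted p = 5.36e-05), and -0.54 (adjusted p = 0.00147) with the GC trend removed, a fold under 1.5. LA against Vehicle gave 0.49 ± 0.10 (adjusted p = 0.00184) and PA+NTP against PA -0.58 ± 0.10 (adjusted p = 0.000295), each with a fold under 1.5.

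Iigp1, an IRG GTPase on mouse chromosome 18, was at 34.7 and 29.5 FPKM in Vehicle, 42.6 and 31.7 in PA, 37.4 and 21.9 in PA+NTP, 49.1 and 50.5 in LA, and 32.8 and 27.7 in LA+NTP. The 2 LA libraries were the highest of all 10, and the other 8 overlapped. Iigp1 changed by 0.68 ± 0.18 on the log2 scale with LA (adjusted p = 0.00743) and by -0.75 ± 0.18 for LA+NTP against LA (adjusted p = 0.00274). The first was 0.56 without Vehicle 2 (adjusted p = 0.0876). With the GC trend removed they were 0.25 (adjusted p = 0.391) and -0.24 (adjusted p = 0.368).

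Irgm1, which regulates the other IRG GTPases, was at 40.1 and 43.1 FPKM in Vehicle, 49.1 and 43.6 in PA, 50.9 and 43.4 in PA+NTP, 52.5 and 54.6 in LA, and 47.7 and 43.1 in LA+NTP. The LA libraries were the highest. LA against Vehicle gave 0.41 ± 0.08 on the log2 scale (adjusted p = 0.00123), a fold under 1.5. Gbp7 ran from 4.14 to 7.42 FPKM and Igtp from 14.9 to 28.3. Gbp7 was at 0.58 ± 0.09 with PA (adjusted p = 0.000204) and at -0.55 ± 0.09 for LA+NTP against LA (adjusted p = 0.000166), a fold just under 1.5 each time.

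**Figure D5:**
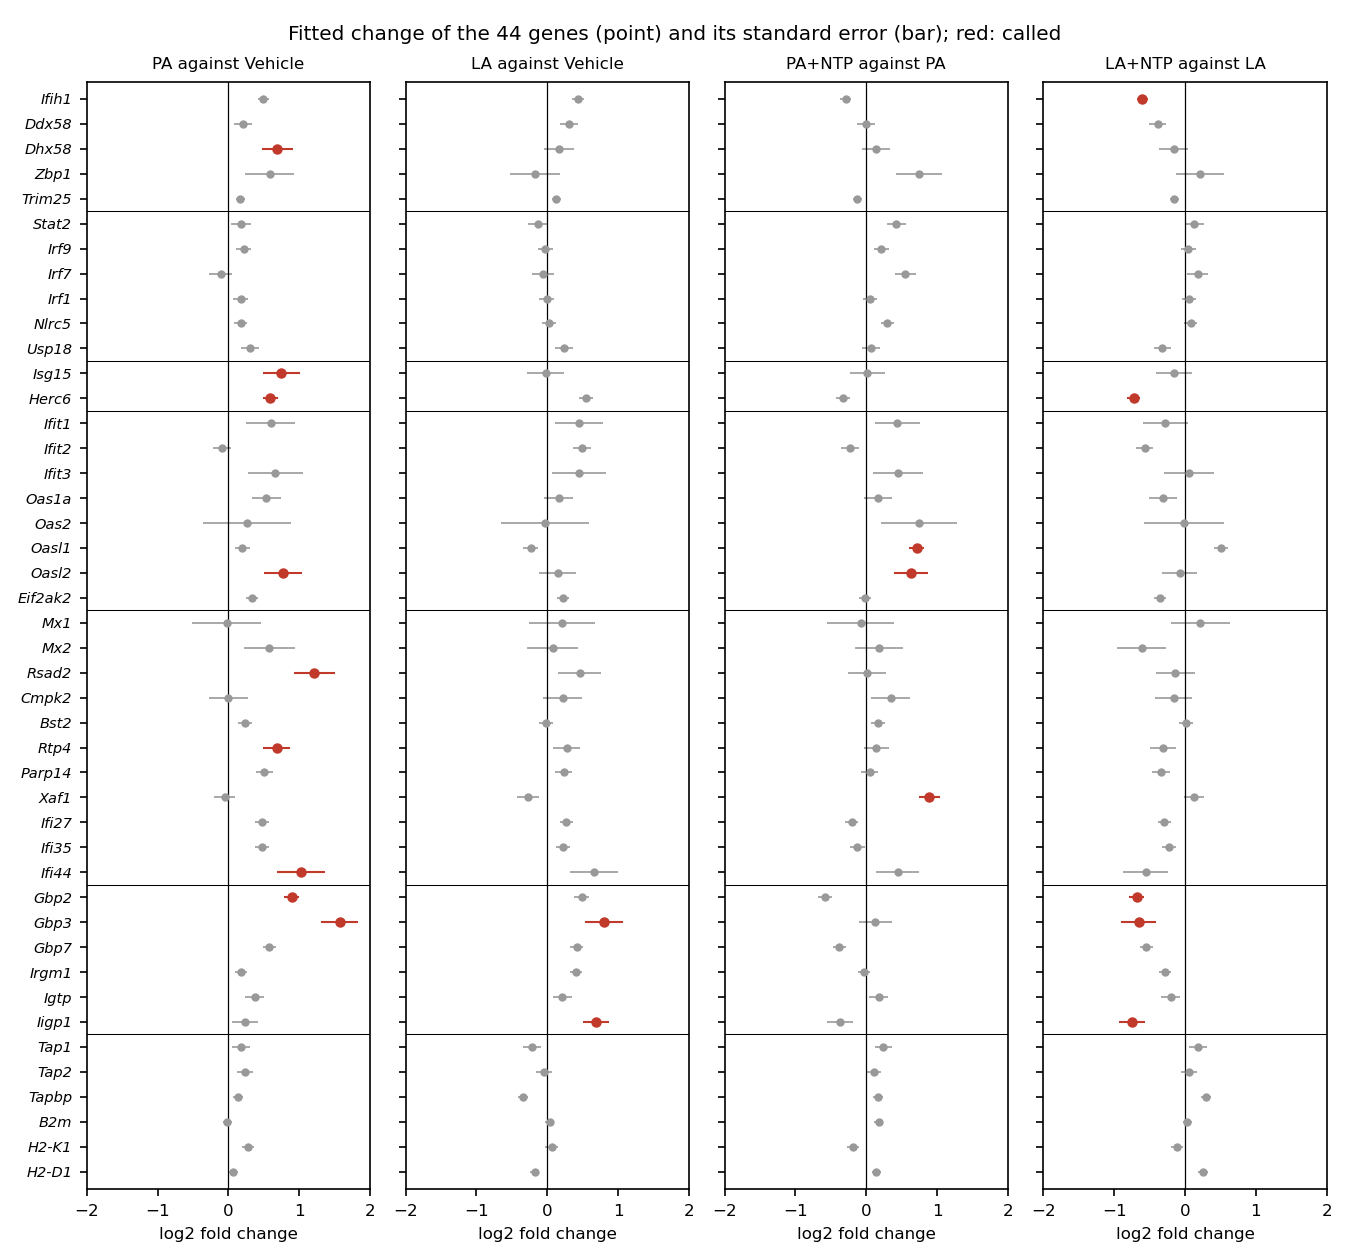
Log2 fold change with its SE for the 44 genes in PA against Vehicle, LA against Vehicle, PA+NTP against PA and LA+NTP against LA, with genes grouped by role; red points passed the adjusted p and the fold threshold. The 9 genes called with PA reach from Herc6 at 0.59 to Gbp3 at 1.57, and the 5 called for LA+NTP against LA from -0.60 to -0.75.

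No class I antigen presentation gene was called in any comparison, and their highest library exceeded the lowest by 1.21-fold for B2m, 1.34-fold for H2-K1 and up to 1.94-fold for Tap1. B2m was at 4903 and 4944 FPKM in Vehicle, 4702 and 4825 in PA, 5494 and 5695 in PA+NTP, 4795 and 4973 in LA, and 4901 and 5370 in LA+NTP. The PA+NTP libraries were the highest, above those of PA by 0.17 ± 0.06 on the log2 scale (adjusted p = 0.0328), a fold under 1.5. PA against Vehicle gave -0.01 ± 0.06 (adjusted p = 0.869).

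H2-K1, a classical class I heavy chain, was at 838 and 714 FPKM in Vehicle, 941 and 898 in PA, 915 and 776 in PA+NTP, 778 and 790 in LA, and 785 and 704 in LA+NTP. H2-D1, another heavy chain, had 806 and 814 FPKM in Vehicle, 850 and 813 in PA, 1029 and 886 in PA+NTP, 701 and 686 in LA, and 873 and 829 in LA+NTP. The 2 heavy chains differed in pattern, since H2-D1 was lowest in LA while H2-K1 was not. The log2 fold change with PA was 0.28 ± 0.09 for H2-K1 (adjusted p = 0.016), and LA+NTP against LA gave 0.25 ± 0.07 for H2-D1 (adjusted p = 0.00502), both with a fold under 1.5.

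Tapbp was at 72.7 and 73.8 FPKM in Vehicle, 80.3 and 77.3 in PA, 98.2 and 85.8 in PA+NTP, 53.3 and 59.1 in LA, and 72.8 and 69.0 in LA+NTP. The groups with PA were the highest and LA the lowest, without overlap. LA against Vehicle gave -0.34 ± 0.07 (adjusted p = 0.00143) and LA+NTP against LA 0.29 ± 0.07 (adjusted p = 0.00247), each with a fold under 1.5. Tap1 and Tap2, which form the transporter that moves peptides into the endoplasmic reticulum, ran from 10.7 to 20.7 and from 16.6 to 26.7 FPKM, with their highest values in PA+NTP 1. Over the 6 class I genes the log2 fold changes ran from -0.01 to 0.28 with PA against Vehicle and from -0.34 to 0.06 with LA against Vehicle.

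PA+NTP against Vehicle, which shares libraries with both PA comparisons, had 11 members higher and none lower by edgeR, with 36 of 44 (81.8%) at an unadjusted p under 0.05, against 24.7% of all genes, and 9 higher and none lower by DESeq2. Of all genes 1.21% were called higher and 1.64% lower. The median was 0.41, and both PA+NTP libraries were above both Vehicle libraries in 38 members, where 27.1% of all genes were. The 11 were Gbp3 (1.70), Ifi44 (1.47), Oasl2 (1.40), Zbp1 (1.33), Rsad2 (1.22), Oasl1 (0.91), Xaf1 (0.84), Rtp4 (0.83), Dhx58 (0.83), Oas1a (0.70) and Stat2 (0.60), with log2 fold changes in parentheses. All 11 kept the call with the GC trend removed. Without PA+NTP 1 the count was 4 and without PA+NTP 2 it was 18. It was 4 without Vehicle 1 and 3 without Vehicle 2, and 8 without both PA 1 and PA+NTP 1. Gbp3, Oasl1 and Xaf1 were called without each library in turn, and each of the other 8 was lost without at least 1 library. Stat2 was at 0.38 (adjusted p = 0.0616) and Zbp1 at 0.74 (adjusted p = 0.145) without PA+NTP 1.

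In LA+NTP against Vehicle no member was called by edgeR or DESeq2, 1 of 44 had an unadjusted p under 0.05, against 14.3% of all genes, and the median log2 fold change was -0.00. Few genes of any kind were called there, 0.0567% higher and 0.0355% lower.

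PA and LA were also compared directly, and no member was called by edgeR or DESeq2, with 23 (52.3%) at an unadjusted p under 0.05, against 24.8% of all genes. Of all genes 1.18% were called higher in PA and 2.04% lower. The median was 0.23, and both PA libraries were above both LA libraries in 20 members, where 27.5% of all genes were. Tapbp differed most clearly, at 0.47 ± 0.07 (adjusted p = 0.000635), a fold under 1.5. Isg15 was at 0.77 ± 0.26 (adjusted p = 0.0722) and Gbp3 at 0.77 ± 0.24 (adjusted p = 0.0573). No member was called without PA 1, LA 1 or either Vehicle library either, and up to 4 members were called without another library, the most without PA+NTP 1 or PA+NTP 2. Without both PA 1 and PA+NTP 1, 2 members were called, both lower in PA, and between the libraries whose files carry the number 3 the median difference of PA and LA was -0.01, with 21 members higher in PA.

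Between PA+NTP and LA+NTP, a comparison added after the values were seen, 14 members were higher in PA+NTP, where 1.38% of all genes were, and none was lower, where 2.45% were. The median was 0.45, and in 32 members both PA+NTP libraries were above both LA+NTP libraries, where 27.9% of all genes were. The 14 included the 11 that exceeded Vehicle, and the further 3 were Isg15 (0.94 ± 0.24, adjusted p = 0.0185), Mx2 (1.29 ± 0.33, adjusted p = 0.018) and Parp14 (0.67 ± 0.12, adjusted p = 0.00226). Without both PA 1 and PA+NTP 1 the count was 7. Rsad2 was at 0.86 (adjusted p = 0.05005) with the GC trend removed, just past the threshold. The count was 5 without PA+NTP 1, 4 without LA+NTP 2, and between 13 and 19 without any other single library. DESeq2 called 11 higher and none lower.

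The effect of NTP under PA was set against its effect under LA by an interaction term. No member and no other gene passed by edgeR, 10 members (22.7%) had an unadjusted p under 0.05, against 7.3% of all genes, and DESeq2 called no member. The difference was above 0 in 39 members, with a median of 0.31. Xaf1 (0.77 ± 0.20, adjusted p = 0.629) and Ifi44 (1.00 ± 0.44, adjusted p = 0.679) had large estimates that missed the threshold.

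As a mean over both FFAs, NTP raised Oasl1 by 0.61 ± 0.07 on the log2 scale (adjusted p = 4.17e-06) and Gbp2 fell by 0.63 ± 0.07 (adjusted p = 2.48e-06), while 11.3% of all genes were called higher and 6.46% lower. Without PA 2, PA+NTP 1, LA 1 or LA+NTP 1 the fold of Oasl1 was under 1.5, and Gbp2 was so without PA+NTP 2 (-0.58). With the GC trend removed the values were 0.26 and -0.51, each under that fold.

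Some 32 of the 44 genes had all 4 PA and PA+NTP libraries above both Vehicle libraries in normalized CPM, where 13.7% of all genes did. In 11 of them these 4 libraries were above all 6 others, where 3.57% of all genes were (Irf9, Isg15, Oasl2, Mx2, Rsad2, Bst2, Rtp4, Gbp3, Tap1, Tap2 and Tapbp). All 4 LA and LA+NTP libraries lay above both Vehicle libraries in 1 member, Irgm1, where 5.46% of all genes did. Between the second replicates, whose files carry the number 3, the median log2 difference was 0.23 for PA against Vehicle (38 members above 0). It was 0.30 for LA against Vehicle (37), 0.09 for PA+NTP against PA (27) and -0.44 for LA+NTP against LA (6). In these comparisons 49.2% to 50.8% of all genes were above 0.

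Further genes of the pathway were taken from lists of interferons, receptors and signalling proteins, sensors and adaptors, other interferon-stimulated genes and other antigen processing genes. Of 192 genes searched, 180 were in the tables and 165 were tested. With PA against Vehicle 27 were higher and 6 lower, where 6.0% and 8.92% of all genes were. With LA against Vehicle 8 were higher and 8 lower, where 3.53% and 7.11% were. PA+NTP against PA gave 12 higher and 6 lower, where 8.74% and 5.11% of all genes were called, and LA+NTP against LA 17 higher and 18 lower, where 11.7% and 7.57% were. With the GC trend removed, 9 in all were called for LA+NTP against LA and 7 for LA against Vehicle.

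Some of these other genes were lower with an FFA and higher with NTP. Values of these single genes, here and below, are given without removal of the GC trend. Shisa5, a protein of the endoplasmic reticulum, was at -0.84 ± 0.09 with PA (adjusted p = 5.15e-06) and at 1.22 ± 0.08 for PA+NTP against PA (adjusted p = 3.25e-07).

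Ly6e, a surface protein that limits coronavirus entry, was at 268 and 266 FPKM in Vehicle, 199 and 177 in PA, 396 and 351 in PA+NTP, 171 and 177 in LA, and 312 and 322 in LA+NTP. PA+NTP against PA gave 0.92 ± 0.07 (adjusted p = 4.68e-07). In the opposite direction, Gbp6 was at 0.99 ± 0.15 with PA (adjusted p = 0.000114) and at -0.65 ± 0.15 for LA+NTP against LA (adjusted p = 0.00174), and Gbp5 at 0.66 ± 0.20 with PA (adjusted p = 0.0153) and -0.74 ± 0.20 for PA+NTP against PA (adjusted p = 0.00643). Casp4, the caspase that senses intracellular lipopolysaccharide, was at 1.38 ± 0.34 with PA (adjusted p = 0.0039). Of the antigen processing genes, H2-Q6, a nonclassical class I heavy chain, was at -1.21 ± 0.21 with LA (adjusted p = 0.000373) and at 1.10 ± 0.20 for LA+NTP against LA (adjusted p = 0.000362). H2-Q6 was thus lower with LA and higher with NTP, like the genes named first. Cxcl11, a chemokine induced by interferon, went the same way with both FFAs. It was at -1.14 ± 0.33 with PA (adjusted p = 0.0106) and at -1.27 ± 0.32 with LA (adjusted p = 0.00597). PA+NTP against PA gave 1.24 ± 0.32 (adjusted p = 0.0055) and LA+NTP against LA 1.12 ± 0.31 (adjusted p = 0.00791).

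Transcripts of the interferons themselves were near the limit of detection. Of the interferon genes searched, Ifnk and Ifnz alone were listed. Ifnk, named after its values were seen, alone was tested. Its expected counts, not scaled for depth, were 2 and 3 in Vehicle, 18 and 27 in PA, and 40 and 32 in PA+NTP. They were 8 and 6 in LA, and 4 and 12 in LA+NTP. Ifnk was called higher with PA against Vehicle (log2 fold change 3.10), PA+NTP against Vehicle (3.32), PA against LA (1.89) and PA+NTP against LA+NTP (2.76). It was not called with LA against Vehicle (1.21), PA+NTP against PA (0.22), LA+NTP against LA (-0.64) or LA+NTP against Vehicle (0.57). The interferon receptors were well expressed, with Vehicle means of 16.2 FPKM for Ifnar1, 61.0 for Ifnar2 and 75.9 for Ifngr1, while the interferon lambda receptor chain Ifnlr1 was at 0.925 FPKM.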

How the data were processed

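RNA of mouse primary hepatocytes was sequenced in 10 libraries, 5 groups of 2. Per the submitters' processing notes, HISAT, Bowtie2, RSEM and build mm10 were used, and no version is given in the sources used here. The deposited expected counts are the authors' RSEM estimates per gene, not normalized. The deposited FPKM values are the authors' own, corrected for transcript length and depth, and only genes with a value above 0 are listed in a library, so a missing gene was taken as 0. Groups and replicate numbers follow the labels. Of 18055 gene IDs, 17998 were matched by ID to RefSeq GRCm38.p6, 11 by accession, and 46 were not matched.

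Rounded expected counts entered edgeR 4.0.16 (R 4.3.3; alternatives used limma 3.58.1 and DESeq2 1.42.0), in 1 quasi-likelihood fit of all 5 groups with TMM factors (0.977 to 1.04) and filterByExpr, which left 14097 genes and dropped 3958. The common biological coefficient of variation was 0.0682. A call required p under 0.05 after Benjamini-Hochberg adjustment over all tested genes and a fold change of at least 1.5. With 2 libraries against 2, an exact two-sided permutation test cannot go below 0.333, so that none was used. Alternatives were DESeq2, limma on log2(FPKM + 1) and log2(FPKM + 0.1), other scaling and filters, the NOISeq rule, a replicate block, removal of the trend on GC content (GENCODE M21 transcripts), and leaving out libraries. The edgeR fit, its replicate block, its GC removal, DESeq2, limma with 1 added before the log, and the NOISeq rule were tested on simulated counts. Only PA against Vehicle was simulated, and the other alternatives were not tested in this way. Values per library are given for members called in at least 1 of the 4 main comparisons, the 6 with the highest mean FPKM, and 1 for each role otherwise lacking one. Stat2 and Zbp1 were added after their values were seen, with ranges for the rest, and the pathway genes named, of which some are not reported here, follow the largest changes at a mean FPKM of at least 1. The members and lists were chosen with earlier results of these data known. Depth ran from 13142588 to 60046937 expected counts. Columns of transcript length were not tested.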

Additional observations from a re-analysis of the deposited data

How the results depend on the processing

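Of the 46 calls of single members over the comparisons, no alternative reversed the direction of any. The number kept was 36 with DESeq2, 42 with scaling by library size, 46 without the filter on low counts, 25 with limma on log2(FPKM + 1), 32 with limma on log2(FPKM + 0.1), 39 when each fit held only the groups compared, and 32 with the GC trend removed. With the replicate number as a block 45 were kept; the deviations of same-numbered libraries correlated across all genes by -0.07 to 0.13. Across the 44 members the correlation ran from -0.24 (PA+NTP with LA) to 0.79 (PA with PA+NTP). Since not every pair was over 0.1 on either count, the numbers were not taken to pair the samples. These are the replicate numbers of the labels, under which first replicates mix files numbered 1 and 2. Whether the file numbers mark shared preparations was not tested.

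Counts of members called that moved are given in turn. Without a fold threshold, 45.5%, 41.3%, 44.7% and 51.5% of all genes were called in the 4 main comparisons, with 69, 51, 59 and 72 pathway genes. Counts of members there were 18 for PA against Vehicle, 12 for LA against Vehicle, 11 for PA+NTP against PA and 16 for LA+NTP against LA. They were 20 for PA+NTP against Vehicle (10.1% of all genes), 5 for PA against LA (11.1% of all genes), 20 for NTP over both FFAs (59.9%) and 29 for PA+NTP against LA+NTP (14.8%). With limma on log2(FPKM + 1) they were 5, 1 and 2 for PA against Vehicle, LA against Vehicle and LA+NTP against LA, 6 for PA+NTP against Vehicle, 1 for NTP over both FFAs and 8 for PA+NTP against LA+NTP, with 9 pathway genes for LA against Vehicle and 21 for LA+NTP against LA. With log2(FPKM + 0.1) they were 1 for LA against Vehicle, 3 for LA+NTP against LA and 1 for NTP over both FFAs. The NOISeq rule, which called at most 5 genes in any comparison, gave 0 members and 0 pathway genes in the 4 main comparisons and 0 members in PA+NTP against Vehicle and against LA+NTP; it could not be run for the interaction and the mean over both FFAs. DESeq2 gave 1 for LA against Vehicle.

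With the GC trend removed the counts were 0 for LA against Vehicle, 1 for PA+NTP against PA, 0 for LA+NTP against LA and 1 for NTP over both FFAs, with 7 and 9 pathway genes for LA against Vehicle and LA+NTP against LA. With the replicate block as well, they were 1, 0 and 1 for LA against Vehicle, LA+NTP against LA and NTP over both FFAs, 4 for PA against LA, and 7 and 10 pathway genes. The replicate block alone gave 4 for PA against LA. Scaling by library size gave 3 for LA+NTP against LA and 1 for NTP over both FFAs. Without the filter there were 5 members for PA against LA and 5 for the interaction, and with only the groups compared 5 for PA against LA and 9 for PA+NTP against LA+NTP. A block on the number of the deposited files, added after the data were seen, gave 3 for PA against Vehicle, 2 for PA against LA and 9 for PA+NTP against LA+NTP, and leaving out both PA 1 and PA+NTP 1 gave 3, 2 and 7. The cause was not tested.

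Leaving out each library in turn gave 3 to 16 members for PA against Vehicle, 0 to 2 for LA against Vehicle, 2 to 8 for PA+NTP against PA, 4 to 10 for LA+NTP against LA, 3 to 18 for PA+NTP against Vehicle, 0 for LA+NTP against Vehicle, 0 to 4 for PA against LA, 0 for the interaction, 1 to 3 for NTP over both FFAs and 4 to 19 for PA+NTP against LA+NTP. Pathway genes ran from 28 to 34, 14 to 17, 15 to 21 and 27 to 37 in the 4 main comparisons. A group left with 1 library is assumed to vary like the others. With 2 libraries a group and counts down to 3 (Oas2), small changes of low genes were not detectable.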
